A study of Mus musculus with 18 samples.

Results

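The TAM receptors (Tyro3, Axl and Mertk), their ligands Gas6 and Pros1, and further molecules with which a phagocyte recognizes and takes up dead cells were examined in bone marrow-derived macrophages (BMMs) that lack or overexpress the glucocorticoid-induced leucine zipper (GILZ), a protein encoded by Tsc22d3. The 10 genes were Axl, Mertk, Tyro3, Gas6, Pros1, Mfge8, Thbs1, Timd4, Lrp1 and Gulp1, chosen by name, and all of them had a row among the 38887 genes measured. RNA was sequenced in 18 libraries, 3 for each of 3 genotypes in untreated and in LPS-treated cells. Lipopolysaccharide (LPS), a component of the Gram-negative cell wall that activates macrophages through Toll-like receptor 4, was given at 100 ng/ml for 4 h. The values are TPM, a transcript level scaled by transcript length and by the library total, and estimated read counts per gene.

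All animals were female mice labelled C57BL/6J, between 10 and 23 weeks old by the methods. Also by the methods, all of them carried Lyz2-Cre (B6.129P2-Lyz2tm1(cre)Ifo/J), a Cre recombinase under the endogenous Lyz2 promoter of the myeloid lineage. The WT group is described there as having Lyz2-Cre alone. The GILZ KO group had, in addition, loxP sites around exon 6 of Tsc22d3. The GILZ TG group had a Gilz-1 cDNA in the ROSA26 locus behind a loxP-flanked stop. Bone marrow cells were cultured for 6 days with 50 ng/ml M-CSF, the growth factor of macrophages. Tsc22d3 was between 14.9 and 18.8 TPM in untreated WT, between 1.89 and 2.81 in GILZ KO and between 152 and 160 in GILZ TG. After LPS it was between 4.56 and 5.81 in WT, so that WT and GILZ KO (2.50 to 3.28) were closer to each other than without treatment and were not told apart by the test (log2 fold change -0.69, edgeR adjusted p = 0.15). Cre is inserted in Lyz2, and Lyz2 itself was at 6766 TPM or more in each WT library and at 70.2 TPM or less in each GILZ KO and GILZ TG library. Comparisons with WT therefore differ in Lyz2 as well as in GILZ, which cannot be told apart, while GILZ KO and GILZ TG share the low Lyz2. The methods do not state whether WT carried as many Lyz2-Cre alleles as the other groups. Tnf rose in each genotype after LPS, with log2 fold changes between 4.28 and 4.59, and Il1b with 9.96 to 10.11.

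Reads on genes were between 14583055 and 38557029 per library. Summed macrophage markers, among them Adgre1, Csf1r and Cd68, were between 5799 and 6824 TPM in all libraries, while Cd163 was at 0.47 TPM or less. The GILZ TG replicates 1 and 2, in both treatments, stood apart from the other 14 libraries. Their sum of 17 stromal markers, with the highest levels in Sparc, Acta2, Col1a1, Col1a2 and Tagln, was between 191 and 277 TPM against 12.8 to 48.7 in the others. In both replicates, 15 of the 17 without treatment and 14 after LPS were above all other libraries of that treatment. Thy1, Lum and Pdgfra stayed at 0.41 TPM or less in all libraries. The sums of 8 neutrophil-lineage markers (187 to 516 TPM against 20.7 to 83.5) and of 8 B-lineage markers (82.0 to 158 against 16.8 to 36.1) were higher in them too, as were the 6 dendritic cell markers (13.97 to 21.1 TPM against 4.31 to 10.9, nearly all of it Itgax, with Flt3 at 0.05 TPM or less). The 8 endothelial markers summed to between 5.59 and 13.5 TPM in all libraries, and the T cell and erythroid sums stayed under 1 TPM. GILZ TG replicate 3 had stromal sums of 25.4 and 23.4 TPM. Its neutrophil-lineage sums (68.3 and 83.5 TPM) and dendritic sums (10.9 and 10.3 TPM) exceeded all WT and GILZ KO libraries of the same treatment. The B-lineage gene Igkc was at 7.28 TPM or more in each GILZ TG library and at 2.22 or less in WT and GILZ KO. Leaving out replicates 1 and 2 therefore does not remove these smaller differences. In such bulk RNA, fewer cells of a type and less RNA per cell cannot be told apart.

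Cells that die by apoptosis expose phosphatidylserine on their surface. Bridging proteins such as Gas6, protein S (Pros1) and Mfge8 bind this lipid with one end and a receptor on the phagocyte with the other, and the TAM receptor tyrosine kinases are the receptors of Gas6 and protein S. This clearance of dead cells, efferocytosis, is known as a step in the resolution of inflammation, and Axl and Mertk are also known to dampen the signalling of Toll-like receptors and interferons in macrophages.

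Of the 10 genes, Axl in both treatments and Timd4 after LPS were called in GILZ TG against WT and against GILZ KO. All GILZ TG libraries, replicate 3 included, were above all others of the same treatment for both genes. The call of Axl against WT after LPS was lost in some settings, given below. The upstream regions of Axl and Timd4 are therefore shown, as the 250 bases before the RefSeq transcription start (GRCm38.p6), 5′ to 3′ on the strand of the gene. The Axl sequence is chr7:25788734-25788983 on the minus strand, the Timd4 sequence chr11:46810549-46810798 on the plus strand. Capitals mark the letters GAAANNGAA, the core of elements bound by interferon regulatory factors.
Axl upstream: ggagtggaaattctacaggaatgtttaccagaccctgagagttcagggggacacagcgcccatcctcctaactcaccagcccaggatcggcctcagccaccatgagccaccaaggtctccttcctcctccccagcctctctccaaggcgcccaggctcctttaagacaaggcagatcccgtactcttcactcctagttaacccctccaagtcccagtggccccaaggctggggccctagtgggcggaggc
Timd4 upstream: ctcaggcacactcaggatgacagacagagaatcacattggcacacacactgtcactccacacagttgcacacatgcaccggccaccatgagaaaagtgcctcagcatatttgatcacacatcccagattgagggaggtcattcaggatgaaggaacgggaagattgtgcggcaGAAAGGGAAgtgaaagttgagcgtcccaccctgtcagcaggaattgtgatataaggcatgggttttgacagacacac
The match in Timd4 lay on the plus strand, 77 to 69 bases before the start, and Timd4 was the only one of the 9 members with a RefSeq upstream sequence (all but Thbs1) to hold it. On either strand, 7.15% of all 32536 such upstream sequences held it. The AP-1 letters TGANTCA (6.73% of all) and the half-site AGAACA of glucocorticoid response elements (16.0%) were in none of the 9 windows, and a match to the NF-kB consensus (7.28%) was found in Tyro3 alone. No motif overlapped another one. The Axl window had 60.0% G and C and the Timd4 window 50.0%, against a median of 52.4% over all windows.

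The receptors differed widely in their level. Axl (chromosome 7, 25757273 to 25788705, minus strand, GRCm38) had the highest level of the TAM receptors in these cells. Without treatment it was at 16.1, 16.4 and 12.4 TPM in the WT replicates, at 11.4, 9.80 and 13.9 TPM in GILZ KO, and at 39.0, 44.4 and 40.6 TPM in GILZ TG. All GILZ TG libraries were above all others, whereas WT and GILZ KO overlapped. After LPS, Axl was at 55.1, 47.1 and 47.6 TPM in WT, at 33.9, 47.9 and 38.0 TPM in GILZ KO, and at 96.9, 115 and 139 TPM in GILZ TG. Again the GILZ TG group did not overlap with either of the others, and untreated GILZ TG lay within the range of LPS-treated GILZ KO.

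LPS increased Axl in each genotype, on a scale of counts normalized by TMM, with log2 fold changes of 2.40 ± 0.15 (SE) in WT, 2.45 ± 0.16 in GILZ KO and 2.09 ± 0.15 in GILZ TG (edgeR adjusted p = 2.98e-10, 4.09e-10 and 1.19e-09). No difference between the 3 responses passed the test, with -0.31 ± 0.21 for GILZ TG against WT and 0.36 ± 0.21 for GILZ KO against GILZ TG (adjusted p = 1.0 and 0.645). In GILZ TG, Axl was higher than in WT by 1.43 ± 0.12 without treatment (adjusted p = 0.000591) and by 1.12 ± 0.14 after LPS (adjusted p = 0.00706). In GILZ KO it fell short of GILZ TG, with -1.96 ± 0.13 and -1.58 ± 0.14 (adjusted p = 9.38e-05 and 0.000719). Against WT, GILZ KO had -0.53 ± 0.13 and -0.46 ± 0.14, which did not pass the adjusted threshold (adjusted p = 0.289 and 0.346). The GILZ TG replicate 3, low in stromal markers, had 2.71 times the WT mean without treatment and 2.78 times after LPS, against 2.60 and 1.94 times in replicate 1 and 2.97 and 2.30 times in replicate 2. Leaving out replicates 1 and 2 makes replicate 3 the only GILZ TG library. Its spread is then taken from the other groups, so no call is read from that fit. With all GILZ TG libraries, the call against WT after LPS was lost without WT replicate 2 (1.02, edgeR adjusted p = 0.0502). It was also lost when only the 6 libraries compared were fitted (adjusted p = 0.0534).

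Mertk (chromosome 2, 128698956 to 128802894, plus strand), the TAM receptor best known for efferocytosis by resident macrophages, was expressed at a few TPM. Untreated values were 2.63, 2.20 and 1.85 TPM in WT, 2.15, 3.35 and 2.48 TPM in GILZ KO and 2.95, 2.53 and 1.63 TPM in GILZ TG, and the groups overlapped. After LPS it was at 4.34, 3.99 and 2.66 TPM in WT, at 1.80, 2.52 and 2.80 TPM in GILZ KO and at 5.03, 7.33 and 2.57 TPM in GILZ TG. Mertk rose in WT (1.26 ± 0.28, edgeR adjusted p = 0.000786) and in GILZ TG (1.64 ± 0.28, adjusted p = 6.06e-05), while GILZ KO had 0.41 ± 0.30 (adjusted p = 0.233). With the replicate of each genotype as a block, GILZ KO passed (0.42, adjusted p = 0.0329), though its libraries did not correlate as pairs. With library totals in place of TMM the increase in WT was 0.58 and no longer called (adjusted p = 0.0731), and the value in GILZ KO turned to -0.23. The response of GILZ KO differed from that of GILZ TG by -1.23 ± 0.41, which did not pass without the block (adjusted p = 0.263) and passed with it (-1.17, adjusted p = 0.0356). After LPS, GILZ KO was 1.06 ± 0.31 below GILZ TG on the log2 scale without passing the threshold (adjusted p = 0.0916). This difference was called by DESeq2 (-1.04, adjusted p = 0.0146), with all 18 libraries in 1 fit (-1.06, adjusted p = 0.0404) and without the GILZ TG replicate 3 (-1.34, adjusted p = 0.0034). It was -0.17 without the replicates 1 and 2 (adjusted p = 0.877), so that it moved with the libraries high in stromal markers. The part of these markers in it was not tested. Mertk overlaps the annotated genes Gm14011 on the other strand and Gm23172.

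Tyro3 (chromosome 2, 119797733 to 119818104, plus strand), known mainly from the nervous system, was hardly expressed. It had between 7 and 28 reads and between 0.20 and 1.04 TPM per library. Its TPM did not follow its counts in each library, as the highest TPM came from 18 reads and the highest count gave 0.37 TPM. By edgeR with TMM it was called in none of the comparisons, with log2 fold changes after LPS of 0.47 ± 0.32 in WT, 0.78 ± 0.34 in GILZ KO (adjusted p = 0.0504) and 0.59 ± 0.30 in GILZ TG. Other settings did call it after LPS, and not in one direction. In GILZ TG limma gave -0.30 and -0.71 on log2(TPM + 1) and log2(TPM + 0.1) (adjusted p = 0.0294 and 0.0482). In GILZ KO it was 0.81 with DESeq2's size factors, 0.79 with protein-coding genes only, 1.08 without GILZ KO replicate 2 and 0.74 by limma with equal library medians (adjusted p = 0.0431, 0.0472, 0.0361 and 8.2e-05). In WT only the last of these called it (0.48, adjusted p = 0.00327), and the other limma fits and library totals gave values between -0.38 and -0.12.

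**Figure D1:**
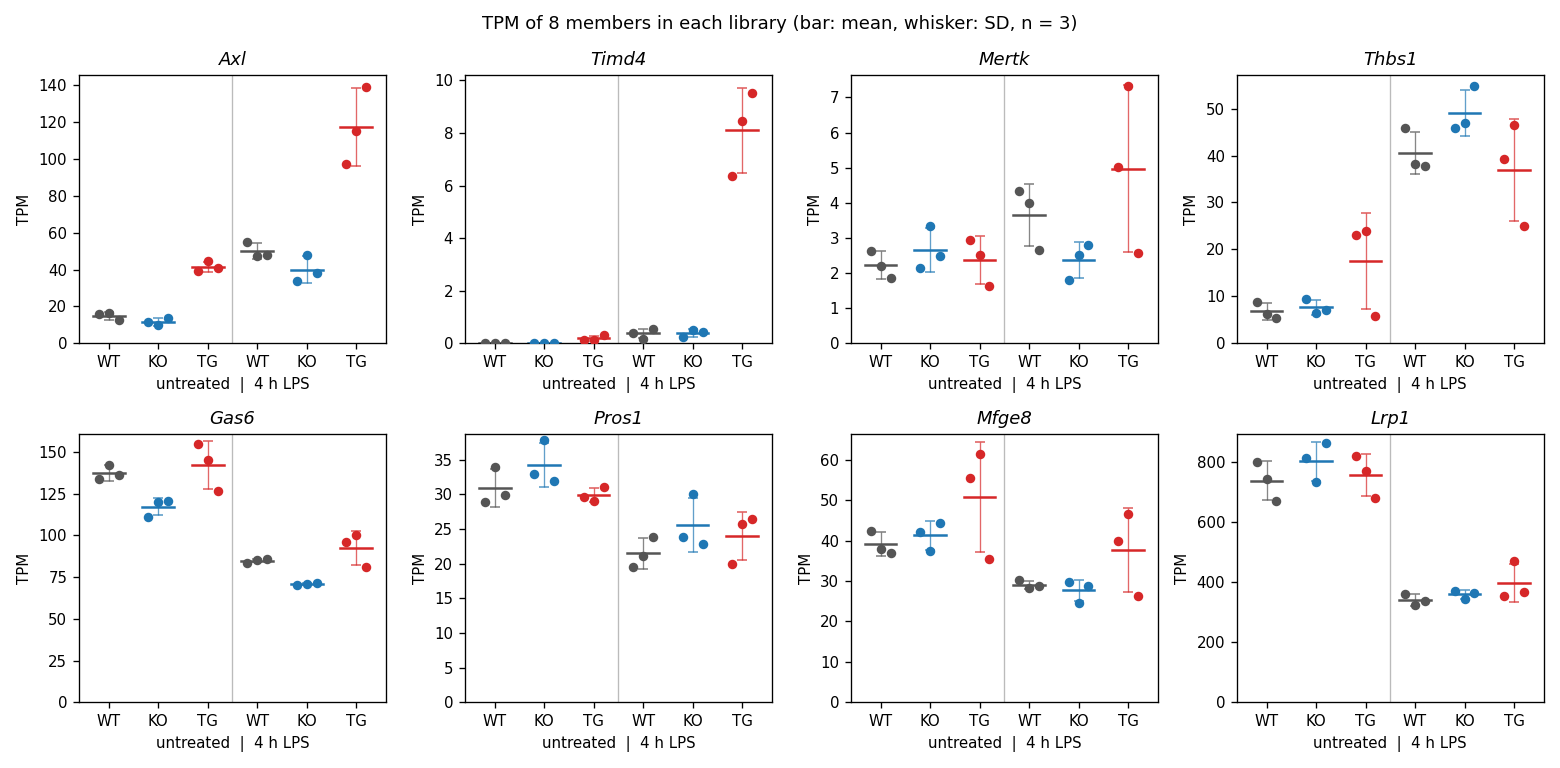
TPM of 8 of the 10 genes in each of the 18 libraries by genotype and treatment, with the mean (bar) and the SD (whisker) of n = 3. Axl and Timd4 are higher in all GILZ TG libraries than in the other genotypes of the same treatment, while Thbs1, Mertk after LPS and Mfge8 are split within GILZ TG.

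Gas6 (chromosome 8, 13465374 to 13494490, minus strand), the ligand of all TAM receptors, was highly expressed. In untreated cells it was at 134, 142 and 136 TPM in WT, at 111, 120 and 121 TPM in GILZ KO and at 155, 145 and 127 TPM in GILZ TG. After LPS it was at 83.7, 85.2 and 85.7 TPM in WT, at 70.3, 70.8 and 71.4 TPM in GILZ KO and at 96.2, 100.4 and 80.9 TPM in GILZ TG. In both treatments all GILZ KO libraries were below all others. The difference to GILZ TG passed the test, with -0.31 ± 0.07 without treatment and -0.39 ± 0.07 after LPS (adjusted p = 0.0406 and 0.0219), but the difference to WT, -0.27 ± 0.07 in both, did not (adjusted p = 0.323 and 0.273). The calls against GILZ TG were lost when any of the 3 GILZ KO libraries was left out (adjusted p between 0.0662 and 0.155), when GILZ TG replicate 1 or 2 was left out (0.0931 to 0.139), and by limma on both TPM scales (0.0507 to 0.0869). Without both of these GILZ TG replicates, which had the highest Gas6 of their group, the differences were -0.16 and -0.23. Gas6 overlaps Tmem255b on the other strand.

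Pros1 (chromosome 16, 62854307 to 62929346, plus strand), protein S, binds Mertk and Tyro3 and is also an anticoagulant of plasma. It was between 28.8 and 37.8 TPM in all untreated libraries and between 19.5 and 30.1 TPM in all LPS-treated ones, and no genotype comparison called it. By TMM-normalized counts Pros1 rose in GILZ TG after LPS (0.28 ± 0.10, adjusted p = 0.015), but on library totals it fell by 0.39 (adjusted p = 0.00105), so that its direction depends on the scaling. It was also not called without GILZ TG replicate 2 or 3 (0.25 and 0.23, adjusted p = 0.101 and 0.0653).

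The scaling mattered for all genes. TMM sets the factor of each library so that the bulk of genes is level, whereas library totals and TPM give shares of all reads. The median log2 fold change of all 13169 genes tested was -0.02 with TMM in each genotype, but between -0.70 and -0.66 with library totals and between -0.52 and -0.51 on log2(TPM + 1). Relative to the median gene, Gas6, Pros1 and Mfge8 thus changed little on all scales. Their share in the library fell in each genotype, with log2 fold changes on library totals between -0.74 and -0.66 for Gas6, between -0.55 and -0.39 for Pros1 and between -0.58 and -0.46 for Mfge8, all with an adjusted p-value under 0.05. Axl, Thbs1 and Timd4 rose and Lrp1 had a negative log2 fold change on each of the 3 scales.

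**Figure D2:**
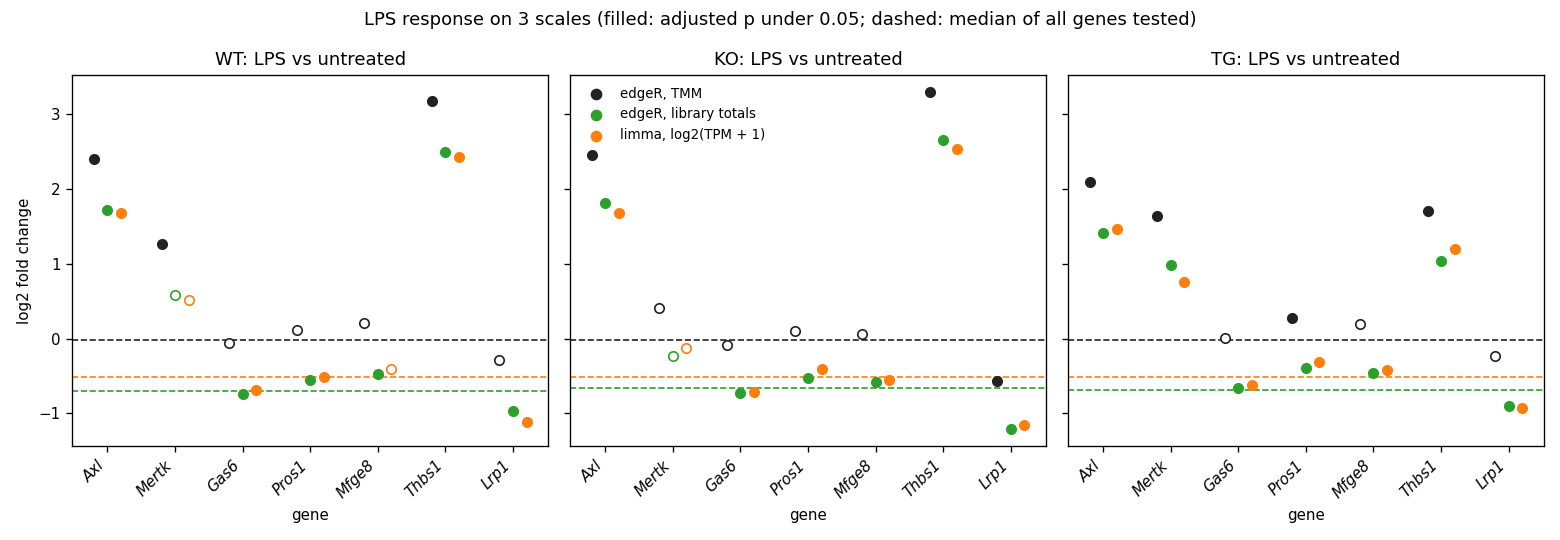
Log2 fold change of 7 genes after LPS in WT, GILZ KO and GILZ TG (panels) by edgeR with TMM, by edgeR with library totals and by limma on log2(TPM + 1), with filled points for an adjusted p-value under 0.05 and dashed lines for the median of all genes tested on the same scale. Gas6, Pros1 and Mfge8 lie close to the median gene on each scale, and Axl and Thbs1 lie above it.

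Mfge8 (chromosome 7, 79133768 to 79149060, minus strand) links phosphatidylserine to integrins of the phagocyte. It was at 42.4, 37.9 and 37.0 TPM in untreated WT, at 42.0, 37.3 and 44.4 TPM in GILZ KO and at 55.6, 61.5 and 35.4 TPM in GILZ TG. After LPS the values were 30.2, 28.2 and 28.9 TPM in WT, 29.8, 24.7 and 28.7 TPM in GILZ KO and 40.0, 46.7 and 26.3 TPM in GILZ TG. The GILZ TG replicates 1 and 2 were thus above all other libraries of their treatment, and replicate 3 was below each WT library. With all libraries no genotype difference passed (GILZ TG against WT 0.36 ± 0.16 and 0.37 ± 0.15, adjusted p = 0.347 and 0.279). Without GILZ TG replicate 3 it did (0.56 and 0.55, adjusted p = 0.0039 and 0.00347), and without replicates 1 and 2 it was -0.14 and -0.12.

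Thbs1 (chromosome 2, 118111876 to 118127133, plus strand), thrombospondin 1, is a matrix protein that bridges dead cells to CD36 and integrin αvβ3. Without treatment it was at 8.87, 6.29 and 5.36 TPM in WT, at 9.46, 6.38 and 7.19 TPM in GILZ KO and at 23.1, 23.9 and 5.78 TPM in GILZ TG. After LPS it was at 45.8, 38.2 and 37.7 TPM in WT, at 45.8, 46.8 and 54.7 TPM in GILZ KO and at 39.2, 46.5 and 25.1 TPM in GILZ TG. Only the untreated GILZ TG replicates 1 and 2 stood out from the other untreated libraries, and these were the libraries with the high stromal sums. LPS increased Thbs1 by 3.18 ± 0.37 in WT, 3.30 ± 0.37 in GILZ KO and 1.70 ± 0.34 in GILZ TG on the log2 scale (adjusted p = 6.39e-07, 4.91e-07 and 0.000306). The smaller response of GILZ TG did not pass as a difference from WT (-1.49 ± 0.49, adjusted p = 1.0) or from GILZ KO (adjusted p = 0.214). Leaving out GILZ TG replicate 3 made it pass in both (-1.71 and 1.82 with adjusted p = 0.00633 and 0.00211), and the level in untreated GILZ TG was then 1.76 above WT (adjusted p = 0.000574). Without replicates 1 and 2 the untreated difference was -0.23, and the response of GILZ TG was 2.79. Whether the stromal markers bear on Thbs1 was not tested. Thbs1 overlaps Gm29233 on the other strand.

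**Figure D3:**
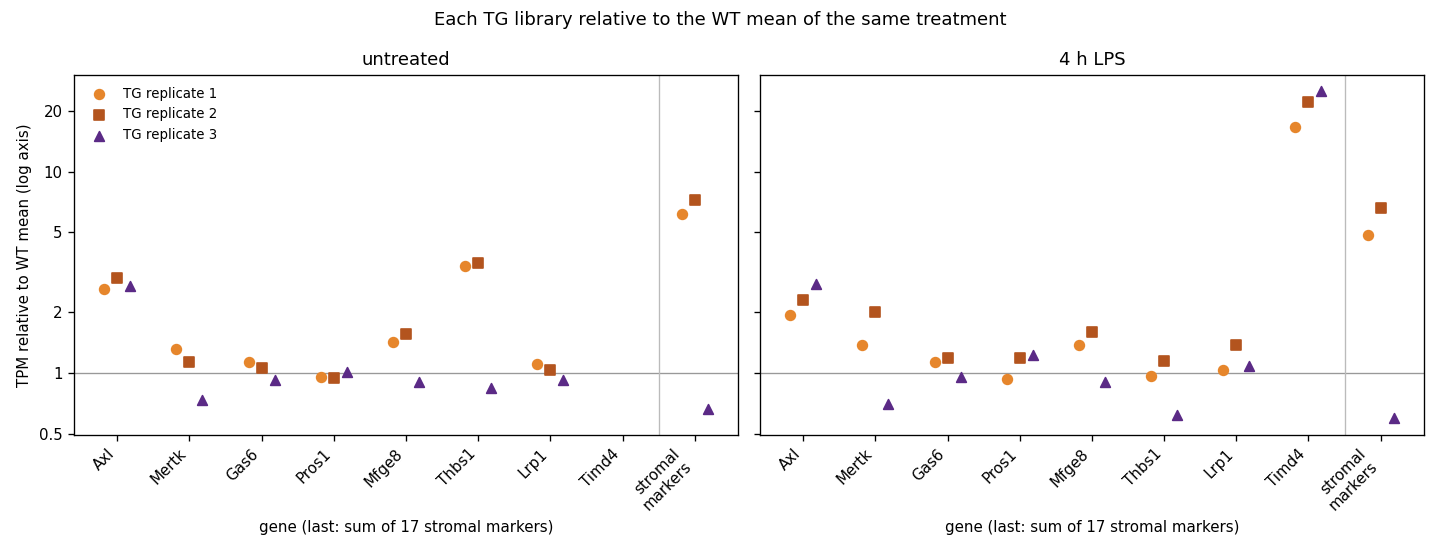
TPM of each GILZ TG library relative to the WT mean of the same treatment (log axis) for 8 genes and for the sum of 17 stromal markers. Replicate 3 lies with replicates 1 and 2 for Axl and Timd4, and on the other side of the WT mean for Gas6, Mfge8, untreated Thbs1 and Lrp1, Mertk and the stromal markers, while Timd4 has no untreated value as it was at 0 in WT.

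Timd4 (chromosome 11, 46810800 to 46844332, plus strand) encodes TIM-4, a direct receptor for phosphatidylserine and a known marker of long-lived tissue macrophages. It had 0 reads in all 6 untreated WT and GILZ KO libraries. The untreated GILZ TG libraries had 3, 5 and 9 reads, or 0.12, 0.15 and 0.31 TPM. Against the floor of 3 counts over a group, GILZ TG was at least 6.38-fold higher than WT and at least 5.21-fold higher than GILZ KO on the TMM scale. These bounds allow for counting error in the group with 0 reads only. The reads of GILZ TG enter as observed, so neither their counting error nor the spread between replicates is covered. The gene was not tested without treatment because of its low counts.

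After LPS, Timd4 was at 0.41, 0.18 and 0.55 TPM in WT (12, 5 and 17 reads), at 0.23, 0.53 and 0.43 TPM in GILZ KO (6, 9 and 8 reads), and at 6.35, 8.45 and 9.52 TPM in GILZ TG (293, 330 and 229 reads). Each GILZ TG library was thus far above each of the others, and WT and GILZ KO overlapped. Timd4 was higher in GILZ TG than in WT by 4.37 ± 0.31 on the log2 scale (20.7-fold, adjusted p = 6.48e-05), and GILZ KO differed from GILZ TG by -4.42 ± 0.33 (adjusted p = 0.000157). Between GILZ KO and WT the value was -0.05 ± 0.45 (adjusted p = 0.983). The largest value came from GILZ TG replicate 3, and both calls stayed in all 19 alternatives, with a log2 fold change between 2.71 and 4.71 against WT. The alternative with replicate 3 as the only GILZ TG library takes its spread from the other groups.

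With LPS, Timd4 rose in GILZ TG by 6.00 ± 0.40 on the log2 scale (adjusted p = 1.61e-08). It was also called higher after LPS in WT and GILZ KO. The increase was at least 20.2-fold and at least 15.4-fold on the TMM scale against the floor, and at least 12.6-fold and 9.92-fold on library totals. In these bounds too, the reads after LPS enter as observed, without their counting error. The fitted size of these responses and of their differences rests on untreated groups with 0 reads. The difference of the response in GILZ TG from that in WT was negative in the fit of the counts (-0.89 ± 0.67, adjusted p = 1.0) and positive by limma on log2(TPM + 1) (2.46, adjusted p = 7.18e-06), and it is therefore not read as a result in either direction.

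Lrp1 (chromosome 10, 127538161 to 127621148, minus strand), a large endocytic receptor that takes part in the uptake of calreticulin-bearing dead cells, had the highest level of the 10 genes. It was at 801, 744 and 671 TPM in untreated WT, at 813, 734 and 863 TPM in GILZ KO and at 820, 771 and 681 TPM in GILZ TG. After LPS it was at 360, 323 and 338 TPM in WT, at 371, 344 and 365 TPM in GILZ KO and at 355, 469 and 369 TPM in GILZ TG. In each genotype all LPS-treated libraries were below all untreated ones. On the TMM scale the fall passed in GILZ KO (-0.57 ± 0.13, adjusted p = 0.00119) and not in WT (-0.29 ± 0.13, adjusted p = 0.0681) or GILZ TG (-0.23 ± 0.13, adjusted p = 0.14). By edgeR it passed in WT too without WT replicate 3 (-0.39, adjusted p = 0.0306), without a filter (-0.33, adjusted p = 0.034) and with protein-coding genes only (-0.32, adjusted p = 0.0424). The block also called it in WT (-0.28, adjusted p = 0.0123). Limma with equal library medians called Lrp1 in WT, GILZ KO and GILZ TG (-0.51, -0.52 and -0.34, adjusted p = 7.49e-05, 6.21e-05 and 0.00287). On library totals it was called in all 3 (-0.97, -1.21 and -0.90), which is more than the shift of the median gene. The difference of the GILZ KO response from that of WT was -0.28 ± 0.19 (adjusted p = 0.874). No genotype comparison called Lrp1 in either treatment. Lrp1 overlaps Gm16217 on the other strand.

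Gulp1 (chromosome 1, 44551511 to 44796838, plus strand), an adaptor of the engulfment receptors Lrp1 and Stab2, had hardly any reads. It had 0 reads in all 6 GILZ KO libraries, between 0 and 3 in the WT libraries and between 0 and 8 in the GILZ TG libraries, where the sums were 11 reads without treatment and 13 after LPS. It was not tested because of these low counts, and a level below a few reads per library was not detectable at this depth. It overlaps 4 other annotated genes.

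Counted over the 10 genes, of which 9 were tested for LPS (all but Gulp1), 4 rose in WT (Axl, Mertk, Thbs1 and Timd4), while 33.5% of all genes tested rose and 35.1% fell. In GILZ KO 3 rose and 1 fell (33.2% and 35.4% of all genes), and in GILZ TG 5 rose (33.6% rose and 35.1% fell among all genes). The median log2 fold change of the 9 genes was 0.47, 0.41 and 0.59, also with Timd4 at its bounds in WT and GILZ KO, beside -0.02 for all genes in each genotype. In the response, 0 of 9 genes were called in the 3 tests of differences between responses by edgeR's quasi-likelihood test, where 0.0152%, 0.00759% and 0.121% of all genes were called for GILZ KO against WT, GILZ TG against WT and GILZ KO against GILZ TG. At an unadjusted p-value under 0.05 the counts of the 9 genes were 0, 1 and 2, and DESeq2 called 0 in each. The replicate of each genotype as a block pairs untreated and LPS libraries in all genotypes, though only those of GILZ TG correlated as pairs throughout. With this block, edgeR called Mfge8 (0.20, adjusted p = 0.00189) and Lrp1 (-0.23, adjusted p = 0.033) after LPS in GILZ TG as well. The response differences of Mertk and Thbs1 between GILZ KO and GILZ TG also passed (-1.17 and 1.46, adjusted p = 0.0356 and 0.0443).

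Without treatment 8 of the 10 genes were tested (all but Timd4 and Gulp1). In GILZ KO against WT 0 were called, beside 0.0951% of all 12621 genes. An unadjusted p-value under 0.05 was found for 2 of them, Axl and Gas6, and DESeq2 called 1 (Axl, -0.54, adjusted p = 0.0158). In GILZ TG against WT, 1 was called (0.642% of all genes), and in GILZ KO against GILZ TG 2 were called (4.94%). After LPS 9 were tested. In GILZ KO against WT 0 were called (0.0822% of all 12164 genes), with 2 at an unadjusted p-value under 0.05 and 0 by DESeq2. In GILZ TG against WT 2 were called (0.46%), and in GILZ KO against GILZ TG 3 (2.6%). These comparisons share their samples pairwise, so their calls are not independent. The median log2 fold change of the genes tested in GILZ KO against GILZ TG was -0.31 without treatment and -0.41 after LPS, where that of all genes was -0.004 and -0.001. Without the GILZ TG replicates 1 and 2, which were high in stromal, neutrophil-lineage and B-lineage markers, it was 0.12 and -0.19, so that its sign without treatment rested on these libraries.

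**Figure D4:**
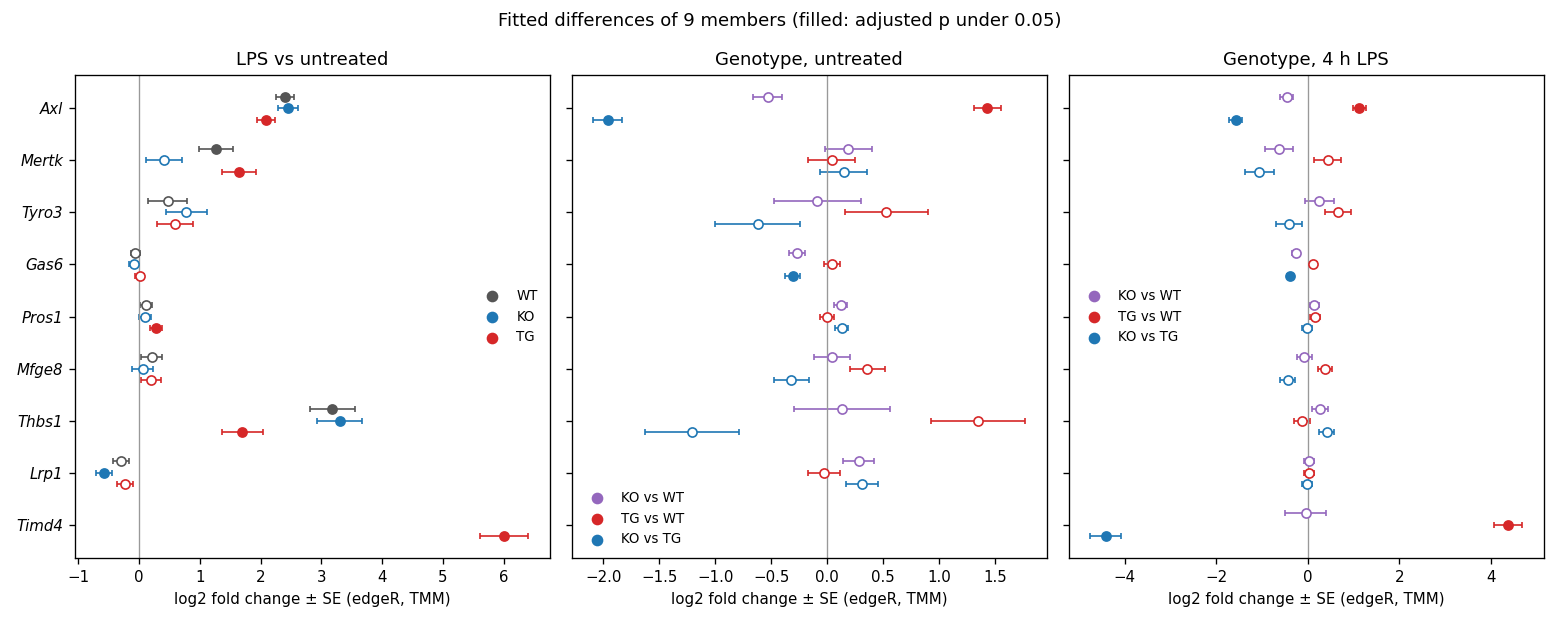
Log2 fold change with SE (edgeR with TMM) of 9 genes after LPS in each genotype (left) and between genotypes without treatment (middle) and after LPS (right), with filled points for an adjusted p-value under 0.05. The fits of Timd4 against groups with 0 reads are left out, and the largest differences between genotypes are those of Axl and Timd4.

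Genes of the same process were counted in 8 lists with 140 genes, chosen by function. In WT, LPS changed 107 of 131 genes tested, 72 up and 35 down, with a median of 0.35, where 33.5% of all genes tested rose and 35.1% fell. With library totals the same lists had 36 up and 75 down and a median of -0.33, so their direction as a whole depends on the scaling. In the values that follow the sign was the same on TMM, library totals and TPM, with 1 exception named there.

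Among other uptake receptors, 8 rose and 10 fell of 20 in WT (3 and 15 with library totals). Scarf1, a scavenger receptor that binds complement C1q on dead cells, rose from 6.39 ± 0.705 (SD, n = 3) to 16.2 ± 0.466 TPM (log2 fold change 1.97). Itgav, the αv integrin that binds Mfge8, rose from 110 ± 22.6 to 235 ± 26.4 TPM (1.72). Cd300lb fell from 145 ± 0.333 to 16.2 ± 0.847 TPM (-2.56) and Pear1 from 5.24 ± 0.367 to 1.58 ± 0.566 TPM (-1.10).

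Of 12 other bridging proteins and opsonins, 7 rose and 0 fell (4 and 3 with library totals). Complement C3 (4.48) and annexin A1 (Anxa1, 1.10) had the largest called changes among those of at least 5 TPM in one group. Of the 8 genes for receptor shedding and ligand carboxylation, 2 rose and 2 fell (1 and 6 with library totals). Adam17, the protease that sheds Mertk, rose from 166 ± 14.5 to 261 ± 2.03 TPM (1.28). Adam9 had 0.52 with TMM and -0.16 with library totals, so that its direction flips. Vkorc1l1, a vitamin K epoxide reductase of the cycle that supports the carboxylation of Gas6 and protein S, fell from 34.6 ± 2.30 to 14.9 ± 0.575 TPM (-0.74), and Lrpap1, a chaperone of Lrp1, by 0.15 on the log2 scale.

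Find-me and don't-eat-me signals changed in 15 of 18 genes, 9 up and 6 down (4 up and 10 down with library totals). The chemokine Cx3cl1 (3.19) and the scramblase Xkr8 (3.13) rose, whereas the receptors Cx3cr1 and S1pr1, which sense chemoattractants, fell from 35.6 ± 6.87 to 2.52 ± 1.16 TPM (-3.20) and from 18.1 ± 0.357 to 2.81 ± 0.475 TPM (-2.05). Of 24 genes of the engulfment machinery 18 rose and 5 fell. With library totals 7 rose and 15 fell, and the median of this list turned from 0.37 to -0.31. Among its called genes of at least 5 TPM in one group, the kinases Src (3.86) and Syk (1.70) rose most. Elmo2 (-1.0) and Dock5 (-0.75) fell most. In corpse digestion and lipid handling 11 rose and 4 fell of 22 (7 and 13 with library totals). Sgk1 (1.96) and the nucleoside transporter Slc29a3 (1.59) were up, and the lysosomal nuclease Dnase2a (-0.47) and Atg7 (-0.34) were down.

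Of 17 transcriptional regulators, 9 rose and 7 fell (5 and 9 with library totals). Irf7 rose from 21.6 ± 4.02 to 1080 ± 68.9 TPM (6.21) and Irf1 from 29.9 ± 0.896 to 400.4 ± 32.6 TPM (4.40). The nuclear receptors Rxra (-2.24) and Pparg (-2.23), which are known to promote the expression of efferocytosis genes, fell. In the list of genes for feedback of TAM signalling 8 rose and 1 fell of 10 (5 and 4 with library totals). Socs1 went from 3.34 ± 0.364 to 222 ± 15.2 TPM (6.69), Socs3 from 23.9 ± 2.99 to 947 ± 52.2 TPM (5.92), and Akt1 fell (-0.28). A part of the TAM receptors in these changes after LPS was not tested. GILZ KO and GILZ TG had 101 and 109 of the 131 genes called after LPS, beside 33.2% and 33.6% of all genes called up and 35.4% and 35.1% called down.

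Between GILZ KO and GILZ TG, 9 of 129 genes of the lists were called without treatment, 3 higher and 6 lower in GILZ KO, with a median of -0.01, beside 4.94% of all genes called, and nothing is read from this count about the lists. Clec7a, the receptor Dectin-1, had 24.8 ± 4.56 TPM in the GILZ KO libraries against 61.2 ± 12.4 TPM in those of GILZ TG (-1.41, edgeR adjusted p = 0.00218), and Trem2, a lipid receptor, at 695 ± 14.6 and 862 ± 24.8 TPM (-0.31, adjusted p = 0.0175). Complement C1qa, which opsonizes dead cells, was at 73.2 ± 8.64 and 192 ± 73.8 TPM (-1.42, adjusted p = 0.0139), and C1qb had -0.71 (adjusted p = 0.0228), while C1qc was the third complement gene called lower. C3 was higher in GILZ KO (0.47, edgeR adjusted p = 0.0458), as were the sheddases Adam10 (0.31, 0.0225) and Adam17 (0.28, 0.0204). The channel Panx1 was lower (-0.22, edgeR adjusted p = 0.0437). C3 was not called with library totals (edgeR adjusted p = 0.051). By limma on log2(TPM + 1), C1qb, Adam17 and Panx1 were not called (adjusted p = 0.0561, 0.114 and 0.184).

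After LPS 11 of 129 were called, 3 higher and 8 lower in GILZ KO, with a median of -0.03, beside 2.6% of all genes called. Lower were Clec7a (-0.76), Havcr2 (TIM-3, -0.42), C1qa (-1.46), C1qb (-0.78), the cholesterol exporter Abcg1 (-0.56), Sgk1 (-0.49), Irf8 (-0.57) and Irf1 (-0.45). Higher were Jmjd6 (0.68), the nucleotide receptor P2ry2 (0.70) and the nuclear receptor Ppard (0.80). By limma on log2(TPM + 1), Havcr2, C1qa, C1qb, Abcg1 and Ppard were not called (adjusted p between 0.061 and 0.131). Havcr2 was not called with library totals either (edgeR adjusted p = 0.0799). The engulfment machinery and the TAM feedback list had 0 of 24 and 0 of 10 genes called in both treatments. C1qa in untreated GILZ TG was at 203, 259 and 113 TPM in replicates 1 to 3, and in WT between 121 and 124 TPM, so that the GILZ TG replicates with the high stromal sums were again the high ones. With replicate 3 as the only GILZ TG library, whose spread is then taken from the other groups, 0 of 130 genes of the lists were called without treatment and 1 of 130 after LPS (Clec7a, -0.89, adjusted p = 0.0437), and C1qa had -0.67 and -0.50.

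Against WT, 2 and 1 genes of the lists were called in GILZ TG without treatment and after LPS, and 0 of 129 in GILZ KO in either treatment. They are named here after their values were seen. Clec7a was at 31.1, 23.2 and 23.6 TPM in untreated WT and at 67.5, 69.3 and 46.9 TPM in GILZ TG (1.21 ± 0.15, edgeR adjusted p = 0.00708). With LPS the gene had 31.7, 26.4 and 30.3 TPM in WT and 52.0, 61.4 and 61.5 TPM in GILZ TG (1.01 ± 0.11, adjusted p = 0.00219). All GILZ TG libraries, replicate 3 included, were above all WT libraries, as for Axl and Timd4. Pear1 was at 5.66, 5.01 and 5.04 TPM in untreated WT and at 3.27, 1.84 and 2.82 TPM in GILZ TG (-0.91 ± 0.15, adjusted p = 0.0343).

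Over all 18 libraries, the genes whose log2(TPM + 1) was most like that of Axl among 9417 genes were Rhoc (Pearson r = 0.952) and Nudt9 (0.941). For Timd4 they were Yju2 (0.923) and Nkiras2 (0.884), for Gas6 Igfbp4 (0.986) and Lgmn (0.978), for Thbs1 Lox (0.975) and Fscn1 (0.958), and for Lrp1 Itpr3 (0.993) and Foxk1 (0.992). Mertk was most like Ndst2 (0.858) and Errfi1 (0.846), Pros1 like Septin10 (0.926) and Mad2l1 (0.921), and Mfge8 like Trappc9 (0.920) and Chst11 (0.918). These values describe the profile over 6 groups of 3 libraries, which include the step between treatments that many genes share, and the libraries of one group are not independent points.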

How the data were processed

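RNA of BMMs from 3 replicates per genotype and treatment was sequenced by the authors as single reads of 75 nt from a directional poly(A) library. The 3 preparations per group are replicates by their labels, and p-values measure the spread between them. Reads were mapped to GRCm38 with the grape-nf pipeline, with FastQC 0.11.2 for quality control. The strand setting of the counting is not given in the sources used here, so reads of overlapping genes may be shared. Per the file headers, the deposited library tables give an expected count in the layout of RSEM, an estimate of the reads per gene that is not normalized, and TPM, which the authors scaled by transcript length to the same sum in each library. The authors' DESeq2 1.40.2 tables hold log2 fold changes and p-values of 20999 protein-coding genes and were used to pair symbols with identifiers only. Gene coordinates are from GENCODE M21 on the same build.

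Expected counts were rounded, filtered with filterByExpr, scaled by TMM and fitted in edgeR 4.0.16 (R 4.3.3), whose quasi-likelihood F-test gave the p-values. LPS responses and their differences were fitted on all 18 libraries (13169 genes), genotypes on the 9 libraries of a treatment (12621 and 12164 genes). P-values were adjusted by Benjamini-Hochberg over all genes tested, with a threshold of 0.05, and the SE was derived from the log2 fold change and the F statistic. Alternatives were DESeq2 1.42.0, limma 3.58.1 on TPM (log2 with pseudocounts of 1 and 0.1), size factors of DESeq2 in edgeR, other filters, other sets of libraries, protein-coding genes only, replicate as a block, and each replicate left out. Library totals and equal library medians were added after seeing the data. With 200 simulated changed genes in GILZ KO against GILZ TG without treatment, edgeR made 203 calls among 12516 genes, of which 2.96% were false. In this simulation 98.1% of the genes changed by 1 on the log2 scale were recovered. Of the calls by DESeq2 in it, 13.2% were false, and 5.77% of those by edgeR when LPS in WT was simulated. The changed genes were drawn above a minimum level, so genes as low as Tyro3 are not described. No simulated library stood apart as GILZ TG replicates 1 and 2 did, so the recovery may be lower in the data.

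The same replicate number paired the untreated and LPS libraries in GILZ TG, where the deviations from the group means correlated with 0.266, 0.397 and 0.605, but not in WT or GILZ KO, or across genotypes, where at least 1 of 3 correlations was 0.1 or below. The 10 genes and all lists were chosen with earlier results of these data known. Genes were named by rule: the 10 genes, checks of genotype and LPS, the 2 largest called changes per list and direction among genes of at least 5 TPM in one group, and the 2 genes most like each member of at least 1 TPM. Plots were made in Python 3.11.15 (matplotlib 3.10.9).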

Additional observations from a re-analysis of the deposited data

How the results depend on the processing

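With library totals, 7, 7 and 8 genes were called after LPS in WT, GILZ KO and GILZ TG in place of 4, 4 and 5, and limma called 7 in GILZ KO and 9 in GILZ TG on log2(TPM + 1) and on log2(TPM + 0.1). In these settings Pros1 turned to -0.55, -0.51 and -0.52 in WT, to -0.53, -0.41 and -0.42 in GILZ KO, and to -0.39, -0.32 and -0.33 in GILZ TG. Mfge8 turned to -0.47 in WT, to -0.58, -0.56 and -0.58 in GILZ KO and to -0.46, -0.42 and -0.43 in GILZ TG. Gas6 turned to -0.66, -0.62 and -0.62 in GILZ TG, and Tyro3 to -0.30 and -0.71 in GILZ TG by limma. Without a call, Mertk in GILZ KO (-0.23, -0.12 and -0.16), Tyro3 in WT (-0.20, -0.12 and -0.38) and Mfge8 in WT by limma (-0.41 and -0.42) turned as well. These scales keep the fall of the median gene that TMM removes by construction. The difference of the Timd4 response turned to 2.46 (GILZ TG against WT) on log2(TPM + 1) and with equal library medians, and to -2.44 and -2.41 (GILZ KO against GILZ TG), which made 1 call in place of 0 in both, as the untreated WT and GILZ KO groups had 0 reads.

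For genotypes, the count was 1 in place of 0 with DESeq2 (GILZ KO against WT without treatment), 2 in place of 1 with all 18 libraries in one fit (GILZ TG against WT without treatment), 1 in place of 2 with limma on both TPM scales, without the GILZ TG replicates 1 and 2, and with only the 6 libraries compared (GILZ KO against GILZ TG without treatment), 1 in place of 2 with only the 6 libraries (GILZ TG against WT after LPS), and 5 in place of 3 without a filter (GILZ KO against GILZ TG after LPS). Smaller moves of a count were 4 with DESeq2 and with all 18 libraries and 2 with limma on both TPM scales and without the GILZ TG replicates 1 and 2 (GILZ KO against GILZ TG after LPS), 3 with all 18 libraries (without treatment), 6 with limma in all 3 settings and 5 without a filter or with protein-coding genes only (LPS in WT), 5 with DESeq2's size factors, protein-coding genes only or equal medians and 3 with only the 6 libraries (LPS in GILZ KO), and 6 with equal medians (LPS in GILZ TG). When single replicates were left out, the counts ranged from 4 to 5 after LPS in each genotype, from 1 to 3 (GILZ TG against WT in both treatments), from 1 to 4 (GILZ KO against GILZ TG without treatment) and from 2 to 5 (after LPS), and from 0 to 1 in the differences of the LPS response of GILZ TG from WT and of GILZ KO from GILZ TG. The highest counts of these genotype comparisons and differences, 3, 3, 4, 5, 1 and 1, came without GILZ TG replicate 3, and the cause was not tested. With the replicate as a block, the count was 6, 5 and 7 after LPS, and 2 in place of 0 for the difference of the response between GILZ KO and GILZ TG, and it changed no other count. Among the changes of single genes under an alternative, 1647 kept their direction and side of the threshold, 44 passed it, 24 lost it, 25 turned and 35 moved by more than 1 SE without a call. The stricter filter left out Tyro3 in all comparisons. Depth limits Timd4 without treatment, Tyro3 and Gulp1.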

Other observations

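The genes that lie close to Timd4 and Axl on their chromosomes were looked at after their values were seen, with no explanation attached. Within 1 Mb of Timd4, 9 genes were tested without treatment and 10 after LPS. Thg1l, 855 kb away, was the only 1 of them called in GILZ TG against WT in both treatments. It was at 15.2, 15.8 and 14.5 TPM in untreated WT, at 16.6, 13.5 and 15.9 TPM in GILZ KO and at 25.9, 25.2 and 23.9 TPM in GILZ TG (0.52 ± 0.08, edgeR adjusted p = 0.0212). After LPS it was at 9.99, 11.6 and 14.3 TPM in WT, at 12.3, 15.3 and 12.7 TPM in GILZ KO and at 18.9, 17.2 and 19.4 TPM in GILZ TG (0.63 ± 0.08, adjusted p = 0.0111). The GILZ TG libraries were above all others in both treatments, replicate 3 included. Havcr2, 330 kb away, which encodes the related receptor TIM-3, was called in GILZ KO against GILZ TG after LPS (-0.42 ± 0.10, adjusted p = 0.0476). Its call was lost with library totals (edgeR adjusted p = 0.0799) and by limma on log2(TPM + 1) (adjusted p = 0.131). Adam19 was called without treatment (-2.76 ± 0.62, edgeR adjusted p = 0.0377), where GILZ TG replicate 3 was at 0.18 TPM and the other GILZ TG libraries at 1.08 and 0.92 TPM. Within 1 Mb of Axl, 28 genes were tested without treatment and 26 after LPS, and 0 were called by edgeR in GILZ TG against WT in either treatment (lowest adjusted p = 0.154 and 0.139), while Exosc5 (-0.34 ± 0.07) and Rabac1 (-0.45 ± 0.07) were called in untreated GILZ KO against GILZ TG.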
